A study of Mus musculus with 18 samples.

Results

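NRF2 is the transcription factor that controls much of the antioxidant response of the cell, and it was followed here through its own transcript, Nfe2l2, the transcript of its inhibitor, Keap1, and the transcripts of 8 of its known target genes. The members were the rows of the deposited count table whose Ensembl identifiers map to the symbols Nfe2l2, Keap1, Nqo1, Gclc, Gclm, Txnrd1, Srxn1, Hmox1, Gsr, and Osgin1 in the mouse genome GRCm38. They make up 10 of 48023 genes in the table. The cells were immortalized murine brown preadipocytes, undifferentiated precursors derived from the stromal vascular fraction of brown fat and immortalized with SV40 T antigen, kept in high-glucose medium with serum. They received vehicle (Veh) or the paracrine growth factor FGF6 at 200 ng/ml for 4, 8, or 24 h. All groups are of the same immortalized line and share its T antigen, and each of the 6 groups holds 3 libraries, 18 in all. The labels do not say whether the libraries of a group came from separate cultures, so p-values measure the spread between libraries, which may be technical.

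In unstressed cells the adaptor KEAP1 presents the NRF2 protein to a CUL3 ubiquitin ligase for degradation. Oxidants and electrophiles modify cysteines of KEAP1, NRF2 then accumulates, pairs with a small MAF protein, and binds antioxidant response elements in front of its target genes, while the repressor BACH1 can occupy the same elements. In brown fat, a tissue of high mitochondrial respiration, the glutathione and thioredoxin systems that these targets serve keep peroxides in check. The assay counted transcripts, so it read neither the amount nor the location of the NRF2 protein.

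Library totals ranged from 24327816 to 33471980 counts. Levels are given as CPM, the counts of a gene brought to a common library total over the genes kept for testing, after scaling by trimmed mean of M values (TMM) factors between 0.951 and 1.05. Depending on the library, 3 counts, taken as the floor, equal 0.0905 to 0.126 CPM (counting error only), and every member lay far above it in every library. All 10 members passed the low-count filter that kept 15071 genes. The third vehicle library at 24 h stood apart: the chi-square of its counts per degree of freedom was 37.9 and 41.2 against the other libraries of its group, where every other pair within a group had 2.44 to 7.63. The values at 24 h rest on it in part. Fold changes and calls of the members and pooled calls of the other antioxidant genes are given below with and without it. Other values at 24 h include it unless stated otherwise.

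Of the preadipocyte and stromal markers, 7 of 8 were detected and Dlk1 was at 0 in every library. At 24 h, 5 were lower and 2 higher with FGF6 (median log2 fold change -1.62). Col1a1 went from 3107 ± 151 to 443 ± 33.7 CPM, and Pdgfrb, Ly6a, and Pdgfra had log2 fold changes of -2.37, -2.91, and -1.62, whereas Vim went from 3483 ± 139 to 5244 ± 144 CPM (SD, n = 3). The other higher marker, Cd34, went from 16.5 ± 0.916 to 43.0 ± 3.37 CPM. Thy1 moved little, from 63.6 ± 0.522 to 55.7 ± 0.674 CPM (SD, n = 3). The sum of the list, in which Vim and Col1a1 weigh most, was 5391 to 5644 CPM in vehicle and 5019 to 5302 CPM with FGF6 at 4 h, 6669 to 7025 and 6008 to 6280 CPM at 8 h, and 7641 to 8059 and 5872 to 6211 CPM at 24 h. The brown lineage factor Ebf2 was detected in all libraries, whereas Zic1 did not exceed 4 counts and Ucp1 had counts in the FGF6 libraries at 24 h alone, at 0.620 to 0.918 CPM. At 24 h Ebf2 was at 54.8 ± 1.76 CPM in vehicle and 42.1 ± 1.35 CPM with FGF6 (SD, n = 3). Of the 4 brown lineage genes, Ebf2, Prdm16, and Ucp1 were tested, and at 24 h 2 were higher and 1 lower with FGF6. Markers of other cell types were low and moved with treatment. Summed over 3 endothelial markers the level was 0.681 to 1.47 CPM in vehicle and 1.92 to 2.49 CPM with FGF6 at 4 h, 0.308 to 0.663 and 2.18 to 3.53 CPM at 8 h, and 0.715 to 1.19 and 3.71 to 5.65 CPM at 24 h. For 4 macrophage and leukocyte markers it was 14.2 to 15.2 and 17.6 to 18.4 CPM at 4 h, 10.7 to 12.2 and 10.6 to 11.1 CPM at 8 h, and 6.39 to 7.92 and 3.32 to 3.96 CPM at 24 h. For 3 muscle markers it was 6.71 to 8.20 and 3.18 to 3.66 CPM at 4 h, 5.68 to 7.60 and 2.79 to 4.19 CPM at 8 h, and 4.94 to 5.58 and 1.18 to 1.54 CPM at 24 h. The leukocyte genes Ptprc and Adgre1 did not exceed 2 counts in any library. The 5 adipocyte markers summed to 156 to 178 CPM in vehicle and 63.4 to 70.1 CPM with FGF6 at 24 h, nearly all of it Fabp4, and the part of these shifts in the values of the NRF2 genes was not tested. In bulk samples, fewer cells of a type and less RNA per cell cannot be told apart.

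The element that NRF2 binds was looked for in the sequences in front of the genes. Promoter sequences from RefSeq (GRCm38.p6) were at hand for 7 of the 10 members (Nfe2l2, Keap1, Nqo1, Gclm, Txnrd1, Srxn1, and Osgin1), with 3 start sites for Txnrd1. The 250 bases before each start site were searched on both strands for the core of the antioxidant response element, TGACNNNGC or TGAGNNNGC, and for the AP-1 motif TGANTCA, which overlaps the former wherever an element reads TGAGTCAGC. Of 32851 mouse promoters of the same length, 23.0% held either form of the antioxidant core and 6.75% held the AP-1 motif. Srxn1 and Osgin1 are shown because they hold the same 9 letters and yet moved in opposite directions at 24 h, and Gclm and Nfe2l2 because each holds the TGAC form of the core. Capitals mark the antioxidant core as it lies on the strand of the gene, each line runs 5′ to 3′ along the gene and ends at the base before the start site.
Srxn1, chr2:152105274-152105523, plus strand: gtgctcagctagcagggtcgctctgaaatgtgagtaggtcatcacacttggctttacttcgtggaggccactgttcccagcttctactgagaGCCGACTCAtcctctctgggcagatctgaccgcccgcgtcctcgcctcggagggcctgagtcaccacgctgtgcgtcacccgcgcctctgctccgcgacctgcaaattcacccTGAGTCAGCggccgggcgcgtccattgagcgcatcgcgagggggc
Osgin1, chr8:119436897-119437146, plus strand: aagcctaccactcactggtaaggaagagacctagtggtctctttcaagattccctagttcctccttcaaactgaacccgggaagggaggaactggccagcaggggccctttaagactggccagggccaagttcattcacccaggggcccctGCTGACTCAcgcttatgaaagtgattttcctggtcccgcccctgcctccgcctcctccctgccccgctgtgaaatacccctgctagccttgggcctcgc
Gclm, chr3:122245307-122245556, plus strand: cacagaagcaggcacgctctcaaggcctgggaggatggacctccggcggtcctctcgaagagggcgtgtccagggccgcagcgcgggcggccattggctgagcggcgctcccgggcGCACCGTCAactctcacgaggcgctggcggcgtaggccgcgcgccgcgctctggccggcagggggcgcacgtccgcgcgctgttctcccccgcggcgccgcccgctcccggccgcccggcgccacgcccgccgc
Nfe2l2, chr2:75704664-75704913, minus strand: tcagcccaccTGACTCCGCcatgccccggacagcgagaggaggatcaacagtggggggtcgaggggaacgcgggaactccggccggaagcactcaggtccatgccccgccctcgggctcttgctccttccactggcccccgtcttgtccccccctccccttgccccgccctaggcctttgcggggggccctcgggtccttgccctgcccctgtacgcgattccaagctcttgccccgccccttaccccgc

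Counted from the start site by the leftmost base, Srxn1 held TGAGTCAGC at position -45 and, on the opposite strand, TGAGTCGGC at position -158. It also held the AP-1 motif at -102 and, within the first element, at -45. Osgin1 held TGAGTCAGC on the opposite strand at -99, and the AP-1 motif lay inside it. Gclm held TGACGGTGC on the opposite strand at -134, Nfe2l2 held TGACTCCGC at -240, and the second start site of Txnrd1 held TGACAAAGC on the opposite strand at -92. Keap1, Nqo1, and the other start sites of Txnrd1 had no match in this window, which says only that these letters are not there. A match describes the sequence and is not a measured binding site.

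Most of the 10 transcripts differed between FGF6- and vehicle-treated cells, and the targets did not move as a block. At every time point Nfe2l2 was higher and Keap1 was lower with FGF6, and Srxn1, Txnrd1, Gsr, and Gclc were higher. Hmox1 and Osgin1 were lower at 8 and 24 h, Gclm went from lower at 4 h to higher at 8 and 24 h, and Nqo1 was lower at 4 and 8 h. With edgeR's quasi-likelihood test at a Benjamini-Hochberg FDR under 0.05, 6 members were higher and 3 lower at 4 h, against 28.6% and 34.2% of all genes tested. At 8 h, 6 were higher and 4 lower, against 32.4% and 38.4% of all genes. At 24 h, 6 were higher and 3 lower, against 35.9% and 37.9% of all genes. Thus a call as such was common in these cells, in which 62.8%, 70.8%, and 73.8% of genes changed in either direction at 4, 8, and 24 h. The median log2 fold change of the 10 members was 0.20, 0.35, and 0.69 at the 3 times, and that of all genes was -0.05, -0.05, and -0.02. The libraries of the FGF6 and vehicle groups did not overlap for 9 members at 4 h and for all 10 at 8 and 24 h, against 66.2%, 73.8%, and 74.8% of all genes. Without the third vehicle library at 24 h, log2 fold changes at that time were 0.74 for Nfe2l2, -0.18 for Keap1, 0.93 for Gclc, 0.70 for Gclm, 0.99 for Gsr, 0.98 for Txnrd1, 3.00 for Srxn1, -0.53 for Hmox1, 0.21 for Nqo1, and -0.65 for Osgin1. The counts were then 7 higher, with Nqo1 added, and 3 lower, against 36.8% and 34.2% of all genes. With 3 libraries against 3, an exact permutation test of a single gene cannot go below 0.1, so single genes were judged by the fit across all genes.

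**Figure D1:**
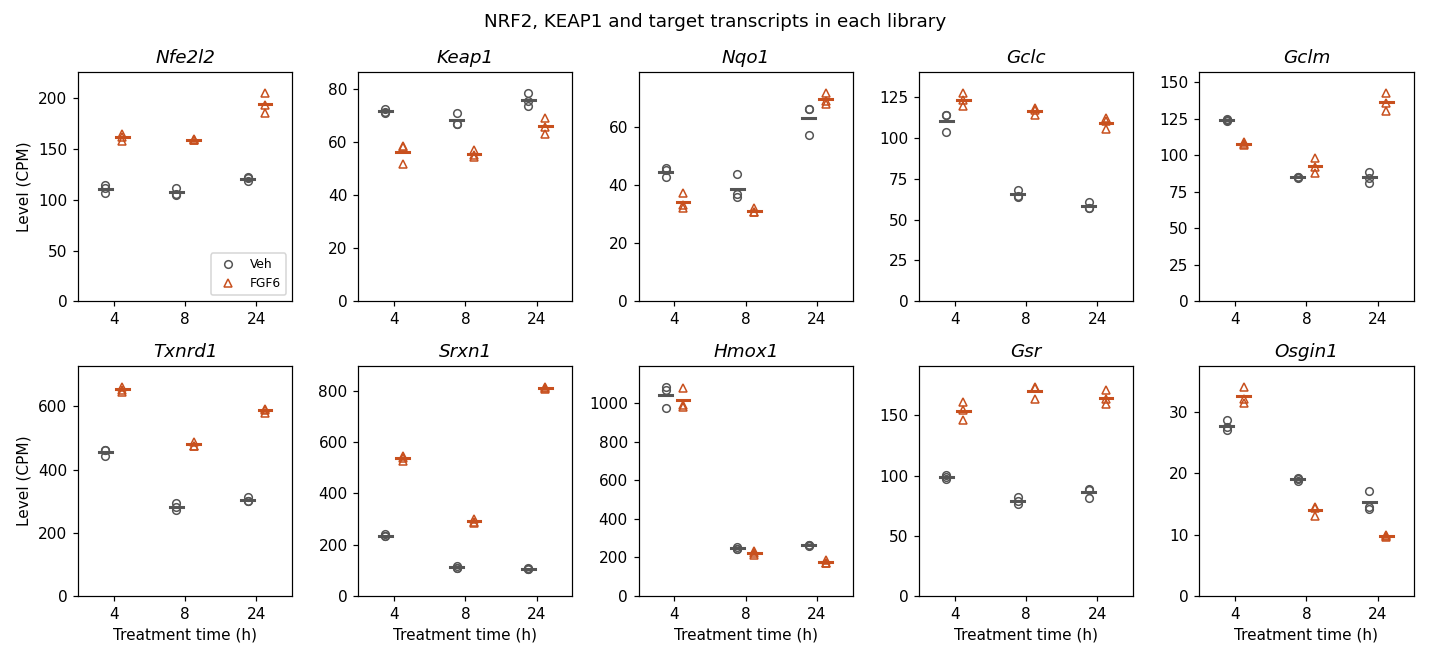
Level of each of the 10 transcripts in CPM (vertical axis, linear from 0, own scale for each gene) at 4, 8, and 24 h of treatment, with circles for Veh, triangles for FGF6, and a bar at the mean of 3 libraries. Srxn1 reaches 807 to 813 CPM with FGF6 at 24 h against 103 to 110 CPM in vehicle, while Hmox1 drops in both groups from a range of 972 to 1082 CPM at 4 h and lies between 169 and 264 CPM later.

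Among the regulators, Nfe2l2 (ENSMUSG00000015839, chr2:75675513-75704641, minus strand) encodes NRF2 itself. In vehicle its level was 106, 112, and 115 CPM at 4 h, 111, 106, and 105 CPM at 8 h, and 121, 118, and 123 CPM at 24 h. With FGF6 it was 158, 164, and 162 CPM at 4 h, 159.0, 159.5, and 158.6 CPM at 8 h, and 205, 193, and 185 CPM at 24 h. Every FGF6 library lay above every vehicle library, also across time points. FGF6 raised it by 0.54, 0.57, and 0.69 on the log2 scale at 4, 8, and 24 h (standard error, SE, 0.04 each, adjusted p = 3.14e-12, 7.89e-13, and 1.04e-14 in the quasi-likelihood test of edgeR, adjusted after Benjamini and Hochberg). As its size went, this was no extreme change, since 35.2% of the genes tested had a larger absolute log2 fold change at 24 h.

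Keap1 (ENSMUSG00000003308, chr9:21229730-21239361, minus strand) encodes the adaptor that holds NRF2 for degradation. Its vehicle level was 71.3, 70.9, and 72.3 CPM at 4 h, 66.8, 70.8, and 66.7 CPM at 8 h, and 75.3, 78.5, and 73.6 CPM at 24 h. FGF6 libraries had 58.5, 58.0, and 51.7 CPM at 4 h, 55.1, 57.1, and 54.3 CPM at 8 h, and 63.0, 65.4, and 69.0 CPM at 24 h. The FGF6 libraries were the lower ones at each time, by the smallest margin at 24 h. Its log2 fold changes were -0.35, -0.29, and -0.20 at 4, 8, and 24 h (SE 0.05 each; edgeR adjusted p = 3.61e-07, 3.66e-06, and 0.000299). Keap1 shares 510 of its 4693 exonic bases with Gm16754 on the opposite strand, a gene of 30 to 67 counts per library, and the strand setting of the counting is not given in the sources used here.

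Within each library, counts per kb of exon allow the regulators to be set against each other. The ratio of Nfe2l2 to Keap1 was 1.92 ± 0.0644 in vehicle and 3.57 ± 0.278 with FGF6 at 4 h, 1.95 ± 0.107 and 3.54 ± 0.0803 at 8 h, and 1.97 ± 0.0998 and 3.66 ± 0.357 at 24 h (SD, n = 3). The log2 difference of this ratio was 0.897, 0.864, and 0.892, so that it was nearly level over time in both groups. BACH1 competes with NRF2 for the same elements, and the ratio of Nfe2l2 to Bach1 was 2.70 ± 0.0737 in vehicle and 3.61 ± 0.117 with FGF6 at 4 h, 2.94 ± 0.122 and 4.71 ± 0.0917 at 8 h, and 2.54 ± 0.0694 and 5.002 ± 0.339 at 24 h (SD, n = 3). Here the log2 difference was 0.422 at 4 h, 0.679 at 8 h, and 0.978 at 24 h. The groups did not overlap in any of these comparisons, and each had an exact permutation p of 0.1, two-sided, the smallest that 3 against 3 can give (also 0.1 after adjustment over the 9 ratios compared).

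**Figure D2:**
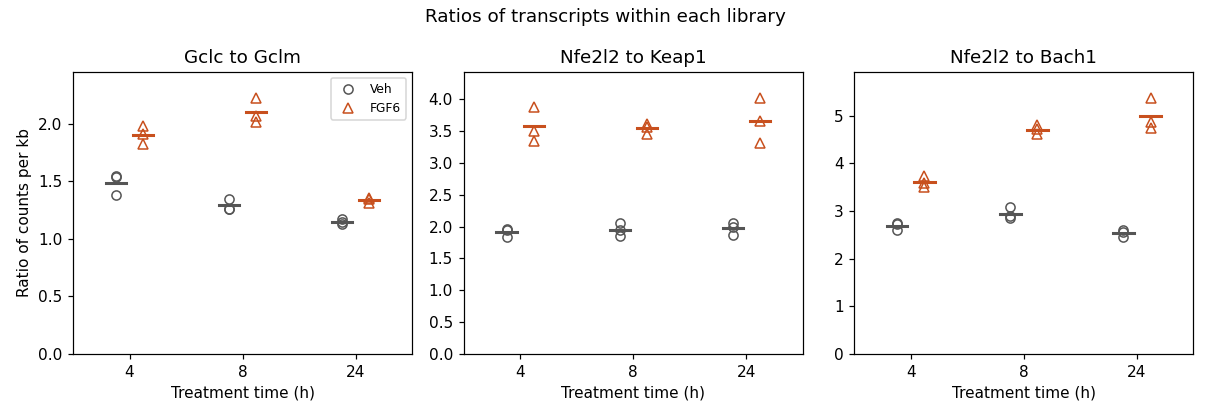
Ratio of counts per kb of exon between pairs of transcripts within each library (vertical axis, linear from 0) at 4, 8, and 24 h, with circles for Veh, triangles for FGF6, and a bar at the mean of 3 libraries. The FGF6 libraries lie above the vehicle libraries in all 9 pairs of groups, and the gap of Nfe2l2 to Bach1 is widest at 24 h, at 5.002 against 2.54.

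Glutathione is made in a first, rate-limiting step by glutamate-cysteine ligase, whose catalytic subunit is encoded by Gclc (ENSMUSG00000032350, chr9:77754535-77794485, plus strand). In vehicle Gclc was at 103, 114, and 114 CPM at 4 h, 68.2, 64.0, and 64.3 CPM at 8 h, and 60.7, 57.3, and 57.1 CPM at 24 h. In FGF6-treated cells it was at 119, 123, and 128 CPM at 4 h, 118, 114, and 117 CPM at 8 h, and 110, 105, and 112 CPM at 24 h. The vehicle level dropped after 4 h while the FGF6 level stayed between 105 and 128 CPM. On the log2 scale FGF6 raised Gclc by 0.16, 0.83, and 0.90 at 4, 8, and 24 h (SE 0.04 each, edgeR adjusted p = 0.00133, 2.78e-15, and 4.45e-16). Without TMM factors the 4 h value was 0.06 and not called.

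Gclm (ENSMUSG00000028124, chr3:122245557-122270732, plus strand) encodes the modifier subunit of the same ligase. Its vehicle level was 125, 123, and 124 CPM at 4 h, 84.5, 85.1, and 85.0 CPM at 8 h, and 88.7, 84.8, and 81.3 CPM at 24 h. FGF6-treated cells had 109, 107, and 108 CPM at 4 h, 98.0, 91.9, and 87.6 CPM at 8 h, and 136, 131, and 143 CPM at 24 h. FGF6 libraries were thus the lower ones at 4 h and the higher ones later. Accordingly, log2 fold changes went from -0.20 at 4 h to 0.13 at 8 h and 0.68 at 24 h (SE 0.04 each, edgeR adjusted p = 6.89e-05, 0.00656, and 2.63e-14). The small 8 h difference was not called without the first FGF6 library at 8 h (log2 fold change 0.08, edgeR adjusted p = 0.084), nor without TMM factors (0.06) or with upper-quartile factors (0.08). Its exons overlap Gm17494 on the opposite strand (2 to 13 counts per library) and Gm6061 on the same strand, which had 0 counts throughout.

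As the 2 subunits moved by different amounts, their ratio shifted. Per kb of exon, the ratio of Gclc to Gclm was 1.49 ± 0.0930 in vehicle and 1.91 ± 0.0779 with FGF6 at 4 h, 1.29 ± 0.0512 and 2.10 ± 0.113 at 8 h, and 1.15 ± 0.0228 and 1.34 ± 0.0241 at 24 h (SD, n = 3). The log2 difference was largest at 8 h, at 0.704, against 0.359 at 4 h and 0.219 at 24 h, with the groups apart at each time (exact permutation p = 0.1, the smallest possible).

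Gsr (ENSMUSG00000031584, chr8:33652523-33698163, plus strand) encodes glutathione reductase, which returns oxidized glutathione to its reduced form with NADPH. In vehicle it was at 96.9, 98.6, and 100.5 CPM at 4 h, 82.3, 76.2, and 78.6 CPM at 8 h, and 88.7, 81.4, and 88.0 CPM at 24 h. Under FGF6, Gsr was at 155, 161, and 146 CPM at 4 h, 173.5, 172.6, and 164.1 CPM at 8 h, and 164, 159, and 171 CPM at 24 h. No FGF6 library came close to a vehicle library. Increases of 0.64, 1.11, and 0.94 on the log2 scale were found at 4, 8, and 24 h (SE 0.04 each; edgeR adjusted p = 6.05e-13, 7.61e-18, and 1.52e-16).

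In the thioredoxin system, Txnrd1 (ENSMUSG00000020250, chr10:82833951-82897712, plus strand) encodes the cytosolic selenoprotein that reduces thioredoxin. Its vehicle level was 463, 462, and 442 CPM at 4 h, 293, 282, and 273 CPM at 8 h, and 312, 299, and 302 CPM at 24 h. With FGF6 it was 653, 660.4, and 647 CPM at 4 h, 488, 476, and 476 CPM at 8 h, and 588, 593, and 580.1 CPM at 24 h. Both groups were highest at 4 h, and the FGF6 libraries lay above vehicle at each time. In order of time, the log2 fold changes were 0.52, 0.76, and 0.95 (SE 0.03 each; edgeR adjusted p = 1.09e-13, 2.97e-17, and 2.23e-19).

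Srxn1 (ENSMUSG00000032802, chr2:152105516-152111376, plus strand), the gene with 2 AP-1 matches above, encodes sulfiredoxin, which repairs peroxiredoxins that peroxide has over-oxidized. In vehicle it was at 239, 232, and 232 CPM at 4 h, 118.0, 109.8, and 107.8 CPM at 8 h, and 103, 106, and 109.7 CPM at 24 h. With FGF6 it was at 544, 538, and 527 CPM at 4 h, 300.5, 284, and 289 CPM at 8 h, and 812, 813, and 807 CPM at 24 h. It showed the largest increase of the 10 genes at every time, and the FGF6 level went down from 4 to 8 h and then up again. FGF6 raised Srxn1 by 1.19 at 4 h (SE 0.03, edgeR adjusted p = 6.61e-20), by 1.38 at 8 h (SE 0.04, edgeR adjusted p = 2.77e-21), and by 2.93 on the log2 scale, or 7.63-fold, at 24 h (SE 0.04, edgeR adjusted p = 9.88e-28). At 24 h, 5.47% of the genes tested had a larger absolute log2 fold change.

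Hmox1 (ENSMUSG00000005413, chr8:75093621-75100589, plus strand) encodes heme oxygenase 1, which degrades heme to biliverdin, iron, and carbon monoxide. In vehicle its level was 972, 1082, and 1070 CPM at 4 h, 252.5, 242, and 244 CPM at 8 h, and 262, 259, and 264 CPM at 24 h. FGF6 libraries gave 989, 1076, and 982 CPM at 4 h, 233, 213, and 223 CPM at 8 h, and 187, 171, and 169 CPM at 24 h. The groups overlapped at 4 h and were apart afterwards with FGF6 the lower. At 4 h the log2 fold change came to -0.04 (95% interval -0.12 to 0.05, edgeR adjusted p = 0.498), and it was 0.01 without the first or without the third FGF6 library of that time, while library sizes without TMM factors gave a call at -0.14. At 8 h it was -0.14 (SE 0.04, edgeR adjusted p = 0.00585), a call lost without the third FGF6 library at 8 h (-0.10, edgeR adjusted p = 0.0804). At 24 h it reached -0.57 (SE 0.04, edgeR adjusted p = 1.59e-11).

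Nqo1 (ENSMUSG00000003849, chr8:107388225-107403206, minus strand) encodes a quinone reductase that is widely used as a readout of NRF2. Its vehicle level was 45.8, 42.8, and 45.2 CPM at 4 h, 43.7, 37.0, and 35.8 CPM at 8 h, and 57.2, 66.3, and 66.1 CPM at 24 h. Under FGF6, Nqo1 was at 37.4, 32.2, and 33.1 CPM at 4 h, 32.1, 30.7, and 30.7 CPM at 8 h, and 71.8, 68.0, and 68.8 CPM at 24 h. Both groups were highest at 24 h. Nqo1 had log2 fold changes of -0.38 and -0.32 at 4 and 8 h (SE 0.07 each, edgeR adjusted p = 2.73e-05 and 0.000257). At 24 h it was 0.14 (95% interval of the single gene 0.01 to 0.26, edgeR adjusted p = 0.0533). That value passed the threshold with limma (adjusted p = 0.0345), with DESeq2 (0.16, adjusted p = 0.0238), without a low-count filter, or with only the libraries of 24 h, and without the second or the third vehicle library (0.22 and 0.21) or the third FGF6 library (0.19), so that Nqo1 at 24 h stood at the edge of a call.

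Osgin1 (ENSMUSG00000074063, chr8:119434124-119446256, plus strand), named for its induction by oxidative stress and its growth-inhibiting product, was the least abundant member per kb of exon in 5 of the 6 groups, the exception being FGF6 at 4 h (12.2 CPM per kb against 11.95 for Keap1). In vehicle it was at 27.0, 27.5, and 28.7 CPM at 4 h, 18.8, 19.1, and 19.2 CPM at 8 h, and 17.2, 14.4, and 14.2 CPM at 24 h. In the FGF6 groups it was at 32.1, 34.1, and 31.5 CPM at 4 h, 14.6, 13.01, and 14.4 CPM at 8 h, and 9.74, 9.68, and 9.87 CPM at 24 h. The FGF6 libraries were the higher ones at 4 h and the lower ones at 8 and 24 h. Osgin1 rose by 0.23 on the log2 scale at 4 h (SE 0.06, edgeR adjusted p = 0.0013) and had log2 fold changes of -0.45 at 8 h (SE 0.07, edgeR adjusted p = 1.88e-06) and -0.65 at 24 h (SE 0.07, edgeR adjusted p = 1.74e-08). Without TMM factors the 4 h value was 0.13 (edgeR adjusted p = 0.0602).

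**Figure D3:**
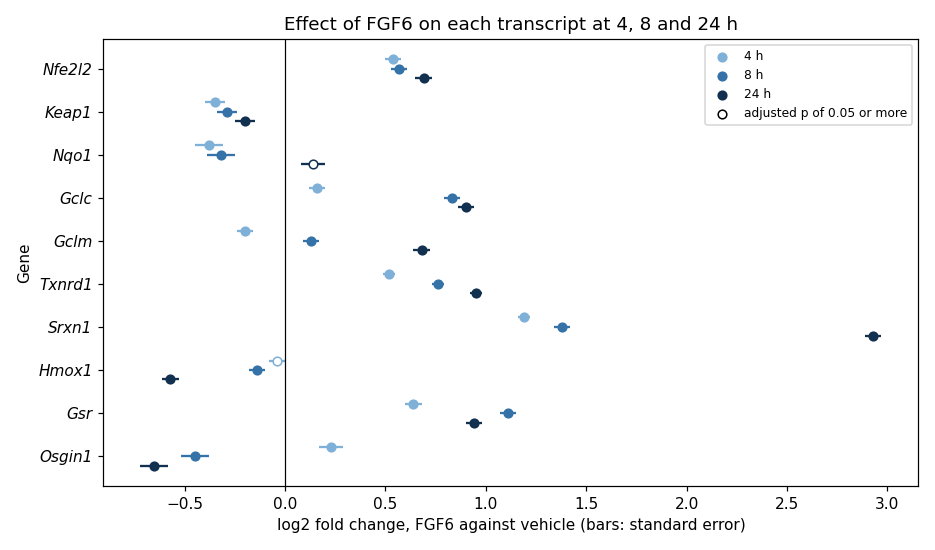
Log2 fold change of FGF6 against vehicle (horizontal axis) for each of the 10 transcripts at 4, 8, and 24 h, light to dark, with bars for the standard error and open points for an adjusted p of 0.05 or more. Srxn1 at 24 h stands at 2.93, Keap1 is below 0 at all 3 times, and Nqo1, Gclm, and Osgin1 have points on both sides of 0.

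The order of levels changed with treatment, as seen in mean CPM per kb of exon. In vehicle at 4 h Hmox1 was far ahead at 595, followed by Srxn1 at 83.2, Txnrd1 at 64.3, and Gsr at 35.8. Gclc at 29.3, Nfe2l2 at 29.2, and Nqo1 at 28.7 came next and did not differ beyond their spread, and Gclm at 19.7, Keap1 at 15.2, and Osgin1 at 10.4 came last. In FGF6-treated cells at 24 h Srxn1 led at 287, ahead of Hmox1 at 100.4 and Txnrd1 at 82.8, with Keap1 at 14.0 and Osgin1 at 3.65 at the end of the order.

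A second question is how these genes moved over time in each treatment. From 4 to 8 h in vehicle, 8 of 10 members fell and none rose, against 21.7% of all genes lower and 21.2% higher, and the median log2 change of the members was -0.55 against -0.00 for all genes. Hmox1 fell by 2.08 on the log2 scale, and 0.319% of the genes tested had a larger absolute change. Srxn1 changed by -1.07, Gclc by -0.75, Txnrd1 by -0.69, Gclm by -0.55, Osgin1 by -0.54, and Gsr by -0.32 (standard errors 0.03 to 0.06, all called with edgeR). Nqo1, at -0.20, was not called when any of 4 libraries (the first or the third at 4 h, the second or the third at 8 h) was left out (-0.15 to -0.19). Nfe2l2 at -0.05 and Keap1 at -0.07 were the members not called.

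From 4 to 8 h in FGF6-treated cells, 5 members fell and 1 rose, against 24.0% of genes lower and 24.1% higher. Hmox1 fell by 2.19, Osgin1 by 1.22, Srxn1 by 0.88, Txnrd1 by 0.45, and Gclm by 0.22 on the log2 scale, and Gsr rose by 0.14. Gclc, which had fallen in vehicle, had a value of -0.09 here (95% interval -0.16 to -0.01, edgeR adjusted p = 0.0837).

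From 8 to 24 h in vehicle, 5 members rose and 2 fell, against 25.5% and 23.7% of genes, with Nqo1 the largest at 0.70. The other increases were between 0.11 and 0.17, and the number of members that rose was 2 without TMM factors, 3 with upper-quartile factors, and 3 without a low-count filter. Shares of all genes called over these hours with such other settings are not given here. Gsr (0.12) was among them and was not called when any of 4 vehicle libraries (the second or the third at 8 h, the first or the third at 24 h) was left out, at 0.10 to 0.12. The number that fell was 3, with Srxn1 added, with library sizes alone (-0.15), with upper-quartile factors (-0.11), without a low-count filter (-0.10), or without the third vehicle library at 8 or at 24 h (-0.10 each), against -0.07 and no call for Srxn1 otherwise. Over the same hours in FGF6-treated cells, 6 rose and 2 fell, against 31.1% and 31.2% of genes. Srxn1 rose by 1.48, Nqo1 by 1.16, Gclm by 0.56, and Nfe2l2 and Txnrd1 by 0.29 each, whereas Osgin1 changed by -0.52 and Hmox1 by -0.34. Gclc, at -0.09 (edgeR adjusted p = 0.0599), stood at the edge of a call: it was called lower, which makes 3 that fell, in 7 of 9 other ways of processing, among them DESeq2 and the study's FDR under 0.25, and without the third FGF6 library at 24 h (-0.11).

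**Figure D4:**
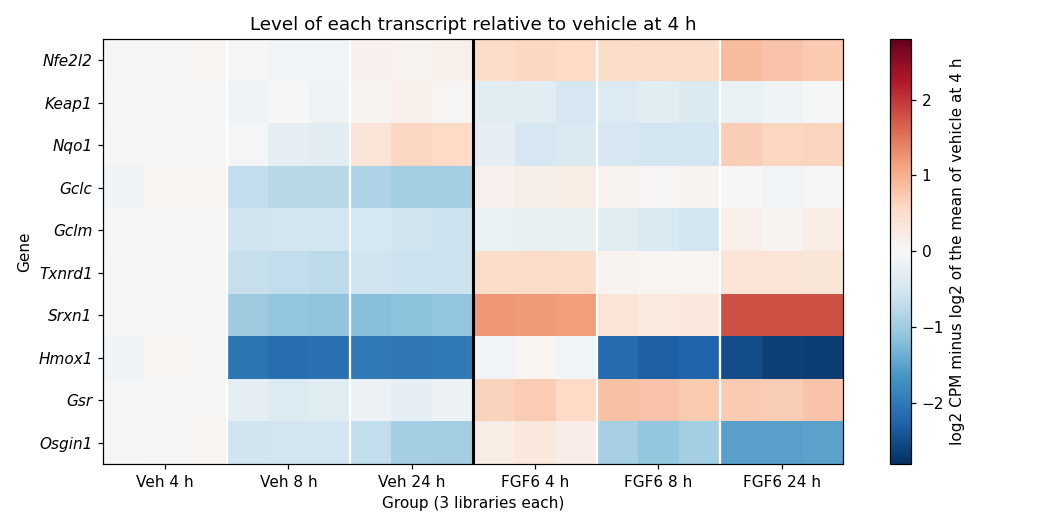
Level of each transcript in each of the 18 libraries as log2 CPM minus the log2 of its mean in vehicle at 4 h (color, blue lower and red higher), with libraries grouped by treatment and time along the horizontal axis. Hmox1 is blue in every library after 4 h, most of all with FGF6 at 24 h, and Srxn1 is blue in vehicle at 8 and 24 h and red in all FGF6 groups.

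The comparisons over time share libraries with those of FGF6 against vehicle, so they are set side by side and are not independent of them. Whether the effect of FGF6 itself differed between times was tested as an interaction. Between 4 and 8 h it rose for 5 members and fell for 1, against 15.5% and 15.1% of all genes, with Gclc (0.67) and Osgin1 (-0.68) as the largest differences. At an FDR under 0.25 it fell for 2 members, against 23.9% of all genes. Between 8 and 24 h it rose for 4 and fell for 2, against 22.6% and 22.5% of genes, led by Srxn1 (1.55), Gclm (0.56), and Nqo1 (0.46). Hmox1 had -0.43, and Gsr, with -0.17, lost its call without any of 5 single libraries (the second of Veh at 8 h, the first of FGF6 at 8 h, the first or the third of Veh at 24 h, or the second of FGF6 at 24 h, at -0.14 to -0.15). From 4 to 24 h it rose for 7 and fell for 2, against 28.3% and 25.2% of genes. Keap1 was the member with no called difference between any of these times, with 0.14 from 4 to 24 h (95% interval 0.02 to 0.27, edgeR adjusted p = 0.0648). It was called there (0.19) without the first or second FGF6 library at 4 h, the second vehicle library at 24 h, or the first FGF6 library at 24 h, and at 0.24 without TMM factors.

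Patterns over the 18 libraries were compared by the root mean square difference of log2 CPM after centring each gene, over 12299 genes with a mean of at least 1 CPM. Among the members, the difference was smallest for Gclc and Txnrd1, at 0.177, followed by Nfe2l2 and Gsr at 0.209. It was largest for Srxn1 and Hmox1, at 1.42. This measure grows with the spread of each gene, and the spreads of these genes were the largest of the members (1.078 and 1.05). A large value therefore does not show that the patterns were opposed. Over all genes, those most like Nfe2l2 were Lin7c (0.060), Prdx1 (0.061), and Procr (0.062), against 0.320 for the spread of Nfe2l2 itself. Those most like Nqo1 were Avpi1, Use1, and Fads2 (0.133 to 0.148, own spread 0.438). Those most like Srxn1 were Igsf11, Polr3g, and Cd33 (0.302 to 0.323, own spread 1.078), and those most like Hmox1 were Vldlr, Klhl29, and Crispld2 (0.346 to 0.377, own spread 1.05). These are descriptions over 18 libraries that share the same 6 groups.

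To place the members in the wider pathway, 94 other genes in 8 lists were examined, of which 83 passed the filter. At 4, 8, and 24 h, 26, 31, and 33 of them were higher and 42, 40, and 42 lower, with medians of -0.14, -0.14, and -0.18. As shares of the 83, 31.3%, 37.3%, and 39.8% were higher and 50.6%, 48.2%, and 50.6% lower, against 28.6%, 32.4%, and 35.9% higher and 34.2%, 38.4%, and 37.9% lower of all genes tested. The counts of each list below are to be read against these shares of all genes. Without the third vehicle library at 24 h, 35 were higher and 39 lower at that time (42.2% and 47.0%), against 36.8% and 34.2% of all genes. Of 13 regulators and partners of NRF2, 12 were tested, with 4 higher at each time (33.3%) and 4, 6, and 7 lower (33.3% at 4 h and 58.3% at 24 h). For these regulators, 5 were higher and 5 lower at 24 h (41.7% each) without the third vehicle library of that time. The small MAF partner Maff rose at all times, at 8 h from 13.3 ± 0.290 to 44.5 ± 4.25 CPM (SD, n = 3, log2 fold change 1.75) and at 24 h by 1.82, and Mafk rose by 1.15 at 4 h and was at -0.17 at 24 h, a call lost without the third vehicle library of that time (-0.09). Nfe2l3, a relative of NRF2, rose at 24 h (1.91) and was not called at 4 or 8 h, and Bach2, a lymphoid relative of BACH1, had -3.11 at 24 h. Mean levels at 24 h were low: 1.03 CPM in vehicle and 3.87 CPM with FGF6 for Nfe2l3, and 7.01 and 0.812 CPM for Bach2. Bach2 and Mafk share exonic bases with genes on the opposite strand.

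Of 19 glutathione genes tested, 7, 8, and 6 were higher (36.8%, 42.1%, and 31.6%) and 10, 9, and 11 lower (52.6%, 47.4%, and 57.9%) at the 3 times. Ggct, whose product breaks down gamma-glutamyl peptides, went from 3.37 ± 0.266 to 45.0 ± 3.04 CPM at 24 h (SD, n = 3, log2 fold change 3.73). The glutathione transferases Gstt1, Gstm2, and Gstm1 had log2 fold changes of -3.53, -3.01, and -2.66 at 24 h. The transferase Gsto1, named after its values were seen, went the other way, from 117 ± 5.36 to 566.5 ± 5.15 CPM at 24 h (SD, n = 3, 2.28), and was higher at all 3 times. Gstm1 and Gstm2 are close paralogs, and how reads that map to both were counted is not given in the sources used here. Of 14 thioredoxin genes, 6, 8, and 8 were higher (42.9%, 57.1%, and 57.1%) and 4, 5, and 5 lower (28.6%, 35.7%, and 35.7%). Prdx6, a peroxiredoxin, rose to 176 ± 3.16 from 69.7 ± 2.01 CPM at 24 h (SD, n = 3, 1.34), and Txnip, which encodes an inhibitor of thioredoxin, was at 73.8 ± 5.52 CPM in vehicle and 10.1 ± 1.79 CPM with FGF6 at 4 h (SD, n = 3, -2.87) and had -3.17 at 24 h. Txnip overlaps Gm15441 on the opposite strand. The stress-responsive Sesn1 had -1.78 at 8 h and Sesn2 had -1.14 at 24 h.

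Of 10 genes of NADPH supply, 2, 4, and 6 were higher and 5, 4, and 4 lower at 4, 8, and 24 h. Without the third vehicle library at 24 h, 6 were higher and 3 lower at that time, against 36.8% and 34.2% of all genes. Idh1, the cytosolic isocitrate dehydrogenase, had the largest difference with -2.08 at 8 h, and Aldh1l1 had -1.40 at 8 h, while the mitochondrial folate enzymes Mthfd2 and Aldh1l2 had 0.80 and -0.74 at 24 h. Aldh1l1 was low, at 1.75 ± 0.0971 CPM in vehicle and 0.666 ± 0.0770 CPM with FGF6 at 8 h (SD, n = 3). Aldh1l1 and Aldh1l2 share exonic bases with genes on the opposite strand, and Aldh1l1 also with a gene on the same strand. Of 10 genes of heme and iron handling, the setting of Hmox1, 1 was higher at each time and 9, 8, and 6 were lower, against 34.2%, 38.4%, and 37.9% of all genes lower. In this list, 2 were higher and 6 lower at 24 h without the third vehicle library of that time. The iron exporter Slc40a1 had -2.53 at 8 h, the heme synthesis genes Fech and Alas1 had -0.94 and -0.83 at 24 h (Alas1 was higher at 4 h, at 0.20, and lower at 8 h, at -0.19), and ferritin heavy chain Fth1, a gene with many processed copies, had -0.60 at 8 h. Slc40a1 was low, at 2.53 ± 0.467 CPM in vehicle and 0.429 ± 0.0963 CPM with FGF6 at 8 h (SD, n = 3). Alas1 shares exonic bases with a gene on the opposite strand. Of 11 phase 2 genes tested, 6, 6, and 7 were higher (54.5%, 54.5%, and 63.6%) and 4 lower (36.4%) at each time, with the epoxide hydrolase Ephx1 at -3.47 at 24 h, the aldehyde dehydrogenase Aldh3a1 higher at 8 h (1.37) but lower at 24 h (-1.03), the esterase Esd at 1.17 at 24 h, and the exporter Abcc1 at 1.13 at 8 h. Aldh3a1 was low, with mean levels at 8 h of 2.12 CPM in vehicle and 5.47 CPM with FGF6.

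Of the 4 superoxide and peroxide enzymes, all were lower at 4 h, 2 at 8 h, and 3 at 24 h, when 1 was higher. Catalase, Cat, was at 75.4 ± 2.51 CPM in vehicle and 39.7 ± 1.57 CPM with FGF6 at 4 h (SD, n = 3, -0.93). The superoxide dismutases Sod2, Sod3, and Sod1 had -0.87, -0.47, and 0.18 at 24 h. Of 8 genes of oxidase sources of superoxide and peroxide, 3 were tested and 2 were lower at each time, Duox1 with -1.34 and Nox4 with -1.02 at 8 h. Both were low: mean levels at 8 h were 2.31 CPM in vehicle and 0.920 CPM with FGF6 for Duox1, and 4.59 and 2.25 CPM for Nox4.

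**Figure D5:**
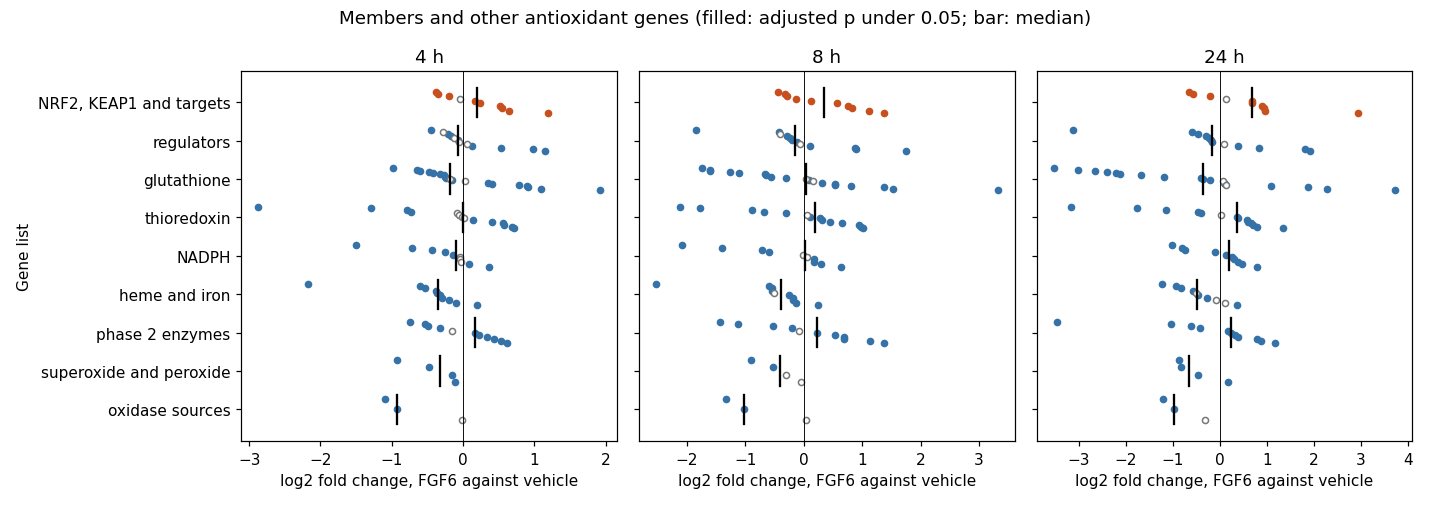
Log2 fold change of FGF6 against vehicle (horizontal axis) of each tested gene of the NRF2, KEAP1 and target list (orange) and of 8 other antioxidant lists (blue), at 4, 8, and 24 h, with filled points for an adjusted p under 0.05, open points for the rest, and a bar at the median of each list. The median of the 10 NRF2 genes moves from 0.20 to 0.69, and that of heme and iron genes lies at -0.35, -0.38, and -0.49.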

How the data were processed

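RNA was sequenced from 18 libraries, and the authors used STAR for alignment to GRCm38.p4 and featureCounts of Subread for GENCODE genes, and deposited 1 table of raw counts per gene without normalization. Versions, annotation release, strand setting, and the treatment of reads mapping to several places are not given in the sources used here. Groups and replicate numbers were taken from the sample labels.

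Symbols, positions, and exon lengths came from GENCODE M21 on GRCm38, which held 98.3% of the identifiers. Genes were kept with edgeR's filterByExpr. With edgeR 4.0.16 (R 4.3.3), TMM factors were obtained and a quasi-likelihood model with 6 group means was fitted to the 18 libraries, with no covariate. Benjamini-Hochberg adjustment ran over 15071 genes, and calls were made at an FDR under 0.05. The study used limma with voom and an FDR under 0.25, and each was run as a separate alternative. Limma with voom was judged at an FDR under 0.05, and the FDR under 0.25 was applied to the edgeR fit. They were not combined as in the study. The standard error is the one implied by the F statistic, and 95% intervals are 1.96 standard errors each way. Other alternatives were DESeq2 1.42.0, library sizes alone, upper-quartile factors, only the libraries compared, no low-count filter, a minimum of 10 counts in each library, the replicate number as a block, and each library left out in turn. The fit was tested on simulated counts, with results for FGF6 against vehicle at 24 h. It recovered 30 of 50 genes changed by 0.25 on the log2 scale and 37 of 50 changed by 0.5. All 50 were recovered at a change of 1 and at a change of 2, with 6 false calls among 14454 genes tested. By a chi-square test of counts no library pair was a duplicate, and the third vehicle library at 24 h stood apart from its group.

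The members and lists were chosen with earlier results of these data known. All members are named. From each list up to 4 genes are named, those with the largest absolute log2 fold change at any time among genes called, with groups that did not overlap and a mean of at least 1 CPM. For Nfe2l2, Nqo1, Srxn1, and Hmox1 the 3 most similar genes are named.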

Additional observations from a re-analysis of the deposited data

Results flagged for a closer look

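The effect of FGF6 on 9 of the 10 genes differed between time points by a test of the difference itself, an interaction term in edgeR's quasi-likelihood fit with Benjamini-Hochberg adjustment over all genes. Such calls were common: from 4 to 8 h the effect rose for 15.5% and fell for 15.1% of all genes. From 8 to 24 h it did so for 22.6% and 22.5%, and from 4 to 24 h for 28.3% and 25.2%. The share of all genes called in any of these tests was not computed, so 9 of 10 has no direct comparison. Values are log2 differences of the effect, the later time minus the earlier, over 3 libraries per group. A gain in effect is not always a rise in level with FGF6. From 4 to 8 h, the genes that gained all fell in vehicle (-0.32 for Gsr to -1.07 for Srxn1). In FGF6-treated cells Srxn1 (-0.88), Txnrd1 (-0.45), and Gclm (-0.22) also fell. There Gclc was at -0.09 without a call, and Gsr rose (0.14).

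Srxn1 gained most, with 0.19 from 4 to 8 h (edgeR adjusted p = 0.00446), 1.55 from 8 to 24 h (edgeR adjusted p = 2.91e-18), and 1.74 from 4 to 24 h (edgeR adjusted p = 1.07e-19). Gclm gained at each step, with 0.33 (edgeR adjusted p = 6.07e-05), 0.56 (edgeR adjusted p = 7.46e-09), and 0.88 from 4 to 24 h (edgeR adjusted p = 6.40e-13). Txnrd1 did so by smaller amounts, with 0.24 (edgeR adjusted p = 0.000104), 0.18 (edgeR adjusted p = 0.00103), and 0.43 (edgeR adjusted p = 5.67e-09).

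Gclc gained early, with 0.67 from 4 to 8 h (edgeR adjusted p = 3.19e-09) and 0.75 from 4 to 24 h (edgeR adjusted p = 5.42e-11). Nqo1 gained late, with 0.46 from 8 to 24 h (edgeR adjusted p = 0.0003) and 0.52 from 4 to 24 h (edgeR adjusted p = 3.94e-05). Gsr had 0.46 from 4 to 8 h (edgeR adjusted p = 1.19e-06), -0.17 from 8 to 24 h (edgeR adjusted p = 0.021), and 0.29 from 4 to 24 h (edgeR adjusted p = 0.000136). The late step of Gsr was -0.14 to -0.15 and not called when the second Veh or the first FGF6 library at 8 h, the first or the third Veh library at 24 h, or the second FGF6 library at 24 h was left out.

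Hmox1 had -0.43 from 8 to 24 h (edgeR adjusted p = 4.13e-06) and -0.54 from 4 to 24 h (edgeR adjusted p = 6.77e-08). Osgin1 had -0.68 from 4 to 8 h (edgeR adjusted p = 2.22e-06) and -0.88 from 4 to 24 h (edgeR adjusted p = 1.73e-08). Nfe2l2 had 0.15 from 4 to 24 h (edgeR adjusted p = 0.0229), which is the only call that counts Nfe2l2 among the 9. It was 0.12 and not called without the third vehicle library at 4 h (edgeR adjusted p = 0.0733), 0.13 and not called without a low-count filter (edgeR adjusted p = 0.0726), and 0.11 and not called with at least 10 counts required in each library (edgeR adjusted p = 0.0817).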

How the results depend on the processing

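The calls of the 10 genes in FGF6 against vehicle kept direction and side of the threshold in 260 of 270 repeats with another processing and in 173 of 180 that left out a library. The processing repeats include the main fit read at an FDR under 0.25. There a result called at 0.05 stays called by construction, so those repeats do not test it. Library sizes without TMM factors shifted the median log2 fold change of all genes to -0.15 at 4 h and -0.114 at 8 h, against -0.05 at both times with TMM, and with upper-quartile factors it was -0.105 at 4 h. Without TMM factors, Gclc (0.06) and Osgin1 (0.13) at 4 h and Gclm at 8 h (0.06) were not called, and Hmox1 at 4 h was called at -0.14 (edgeR adjusted p = 0.00573).

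Members with a lower effect at 8 than at 4 h numbered 2 at an FDR under 0.25. Those with a lower effect at 24 than at 8 h numbered 1 with library sizes alone and with upper-quartile factors, and 1 to 2 with a library left out. Members that rose in vehicle from 8 to 24 h numbered 2 with library sizes alone, 3 with upper-quartile factors, and 3 without a low-count filter. Shares of all genes called with these other scalings, filters, or libraries are not given here. Whether the whole table shifted with them in these comparisons was not tested. Values near 0 changed sign for 4 results. Nfe2l2 in FGF6-treated cells from 4 to 8 h was 0.04 with library sizes alone, Keap1 there was 0.05 with library sizes alone, 0.01 with upper-quartile factors, and -0.07 to 0.02 with a library left out (0.02 and 0.01 without the first and the second FGF6 library at 4 h), and Hmox1 with FGF6 against vehicle at 4 h was -0.08 to 0.01 with a library left out (0.01 without the first or the third FGF6 library). Gclm in vehicle from 8 to 24 h, 0.00 as reported, was -0.08 to 0.01 over the processing and -0.03 to 0.03 with a library left out, never called. Apart from the smaller number of libraries in those left out, the cause was not tested.

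The labels do not say whether same-numbered libraries share a culture or batch. Over 9 pairs their deviations correlated between -0.073 and 0.079, and 5 pairs were best matched by their own number. The third library had the lowest total count in every group. Correlations this weak over 9 pairs cannot show whether a batch was shared. With the replicate number as a block, 0 of 100 calls of the members changed, the counts at 4 h remaining at 6 higher and 3 lower.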
